A study of Mus musculus with 12 samples.

Results

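The nuclear genes of oxidative phosphorylation were examined for the mRNA modification N6-methyladenosine (m6A) in the hippocampus of wild-type (WT) and *Tyrobp*-/- (KO) mice. Members were chosen by name alone, as genes whose symbol begins with Nduf, Uqcr, Atp5 or Cox followed by a digit, together with *Sdha*, *Sdhb*, *Sdhc* and *Sdhd*, leaving out pseudogenes. The rule found 73 genes among the 17777 genes named in the peak lists and the genotype comparison. They held 99 of 33622 m6A peaks in the WT list and 111 of 34935 in the KO list.

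m6A was mapped by methylated RNA immunoprecipitation sequencing (MeRIP-seq), in which fragmented poly(A) RNA is pulled down with an antibody against m6A (IP) and sequenced beside the fragments before pull-down (input). There were 3 WT and 3 KO samples, each with an IP and an input library, from male mice aged 6 months. The KO mice carry a TALEN-made deletion in *Tyrobp*, the gene of a signalling adaptor of microglia, in a line bred with C57/BL6, and the controls were age-matched WT littermates. Each sample pooled the RNA of 3 hippocampi. The 12 libraries held 61189368 to 73554506 valid reads, and their GC content lay between 47.59% and 50.24%, with 49.16% to 50.24% in the WT IP and 48.46% to 49.33% in the KO IP libraries. *Tyrobp* had no peak in either list, so the peaks do not check the genotype labels. Of 10 hippocampal marker genes, 8 had a peak in both lists and *Grik4* and *Nptx1* had none in either. A peak needs both the transcript and m6A, so a gene without a peak can still be expressed. Among markers of neighbouring tissue, the hypothalamic genes *Trh* and *Oxt* had a peak in WT alone (1.86 and 4.88, as ratios of IP to input), and *Pmch* and *Hcrt* none. The paper reported *Pmch* and *Hcrt* among the genes most upregulated in KO by RNA sequencing. The striatal genes *Drd2* (11.7 in WT, 16.9 in KO) and *Ppp1r1b* (1.72 and 3.42) had peaks in both lists, as did *Kl* of 3 choroid plexus markers (6.84 and 6.53), while *Ttr* and *Folr1* had none. Their part in the results was not tested.

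Oxidative phosphorylation makes ATP in the inner mitochondrial membrane. Complex I (NADH dehydrogenase, the Nduf genes) and complex II (succinate dehydrogenase, the Sdh genes) pass electrons to ubiquinone, complex III (the Uqcr genes) passes them to cytochrome c, complex IV (cytochrome c oxidase, the Cox genes) passes them to oxygen, and ATP synthase (the Atp5 genes) uses the resulting proton gradient. Neurons depend heavily on this pathway. Most subunits are encoded in the nucleus by short, abundant mRNAs, and the Ndufaf genes and several Cox genes encode assembly factors that are not part of the finished enzyme. m6A is written mainly in poly(A) RNA at a consensus whose core is GAC or AAC, is frequent near stop codons and in 3′ UTRs, and is read by proteins that affect mRNA decay and translation.

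Several member peaks reached the first transcribed bases of their gene, and the sequence there is known from the RefSeq starts. Start sequences were available for 85 member genes, fewer than the 105 members that RefSeq lists as protein-coding. Of these 85, 21 had a peak over the first 50 transcribed bases of at least 1 start, and 12 had one in both lists. The letters searched were GGAC, its variant with AGAC, the form with GAAC, and lastly the form with AAAC, each with any base but G after it, on the transcribed strand of these 50 bases. They were present in 12 of the 23 start windows that a peak overlapped (52.2%), in 40 of all 91 member windows (44.0%) and in 44.6% of all 32851 RefSeq windows. The GGAC forms alone were in 16 member windows (17.6%) and in 15.4% of all windows. A match describes the letters and does not mark a methylated base. The sequences below are those around a match that lay inside a peak, with the 5 matching letters in capitals, for the members with the GGAC core or with AGACT, and for *Sdhb*, whose start held the highest fold enrichment of complex II.
Ndufa8: cagccaaaggGGACTtgaaggagac
Ndufaf1: aaaagtagaaGGACTattcggggga
Ndufa7: ggaatcctcgGGACAgagtcgtcac
Cox5b: gggcgttgttAGACTcccaccaacg
Cox14: gaggaaggctAGACTgagcgtgcgt
Ndufa13: actggcgaggAGACTgcccactgat
Sdhb: tggctcggagAAACCggaagcggcc
In GRCm38.p6 these are chr2:36049291-36049315 on the minus strand for *Ndufa8*, chr2:119662803-119662827 on the minus strand for *Ndufaf1* and chr17:33824580-33824604 on the plus strand for *Ndufa7*. They are chr1:36691502-36691526 on the plus strand for *Cox5b*, chr15:99725611-99725635 on the plus strand for *Cox14*, chr8:69901978-69902002 on the minus strand for *Ndufa13* and chr4:140961264-140961288 on the plus strand for *Sdhb*. The match lay in a peak of both genotypes in *Ndufa8*, *Ndufaf1*, *Ndufa7*, *Cox5b* and *Cox14* and in a WT peak alone in *Sdhb*. In *Ndufa13* it lay in a KO peak listed under that gene and in a WT peak listed under *Tssk6*.

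About as many oxidative phosphorylation genes carried a called m6A peak as other protein-coding genes did. Of the 105 members that RefSeq lists as protein-coding, 64 had a peak in WT (61.0%, against 56.8% of 21900 protein-coding genes) and 65 in KO (61.9%, against 58.2%). A peak in at least 1 list was found for 71 of them (67.6%, against 62% of all), and 34 had none. The cytosolic ribosomal protein genes, another family of short and abundant mRNAs, had a peak for 29 of 84 genes in WT (34.5%) and 34 in KO (40.5%). Counted by the names in the lists, 58 members had a peak in both genotypes, 6 in WT alone and 8 in KO alone. Thus 90.6% of the WT members were also KO members and 87.9% of the KO members were also WT members, against 89.9% and 87.8% of all genes. Most members with a peak had 1, namely 37 of 64 in WT (57.8%, against 45.0% of all genes) and 34 of 66 in KO (51.5%, against 43.8%). At least 3 peaks were found on 5 members in WT (7.81%, against 28.0%) and 12 in KO (18.2%, against 28.8%).

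**Figure D1:**
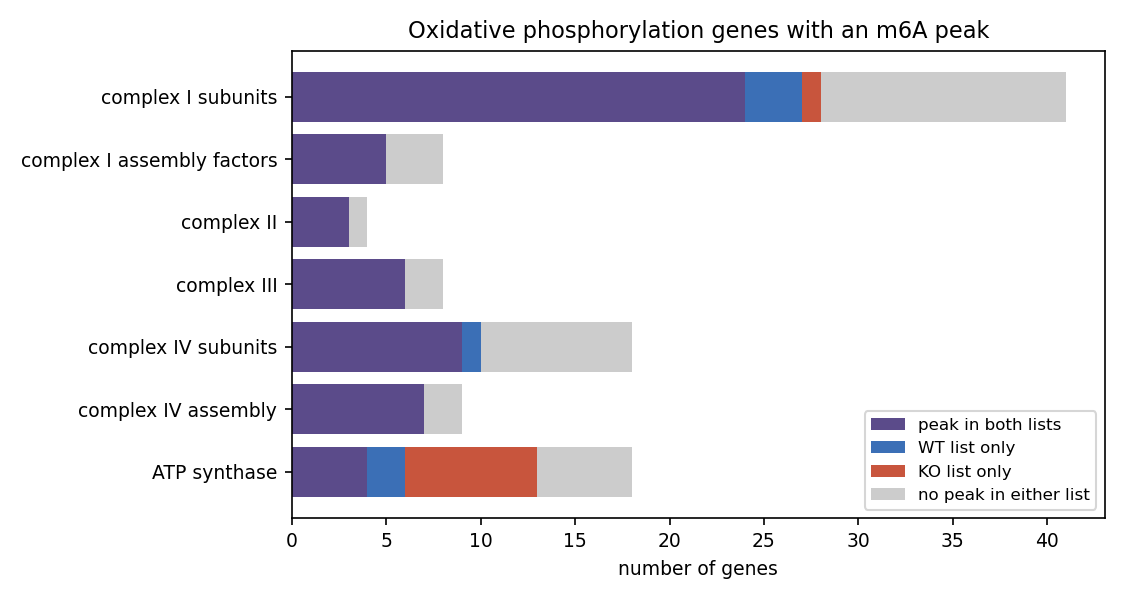
Number of oxidative phosphorylation genes (x axis, genes) by role (y axis), split by whether a peak was listed in both genotypes, in WT alone, in KO alone or in neither. Complex I holds most of the genes, and 7 of the 8 members with a peak in KO alone are in the ATP synthase bar.

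The peaks on these genes were called with strong statistics at low fold enrichment, which is the ratio of IP to input reads within the peak. Because there is a single peak list for the 3 replicates of a genotype, each peak has 1 fold enrichment and no replicate error, and no difference below carries a test. The median fold enrichment of member peaks was 2.48 in WT (quartiles 1.84 and 4.49) and 2.44 in KO (1.90 and 3.84), where all peaks had medians of 5.54 and 5.72. The ribosomal protein genes had medians of 2.34 and 2.57. Member peaks below a fold enrichment of 2 made up 31 of 99 in WT (31.3%, against 9.56% of all peaks) and 32 of 111 in KO (28.8%, against 8.42%). Member peaks of at least 4 made up 28.3% in WT and 23.4% in KO, against 63.2% and 64.3%.

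The peak-calling false discovery rate (FDR) of IP over input went the other way. Its log10 had a median of -49.3 for member peaks and -12.5 for all peaks in WT, and of -61.6 and -11.6 in KO. A fold enrichment under 2 with an FDR below 1e-05 was found for 27 member peaks in WT (27.3%, against 5.85% of all) and 27 in KO (24.3%, against 4.95%). The FDR was listed as 0 for 12 WT and 14 KO member peaks (12.1% and 12.6%), a share near that of all peaks (11.5% and 10.2%). It was 0.05 or more for 4 member peaks in each list, against 3476 of all 33622 WT peaks and 3850 of all 34935 KO peaks. An FDR depends on the number of reads in a peak as well as on the fold, and read numbers per peak and expression were not analysed here.

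**Figure D2:**
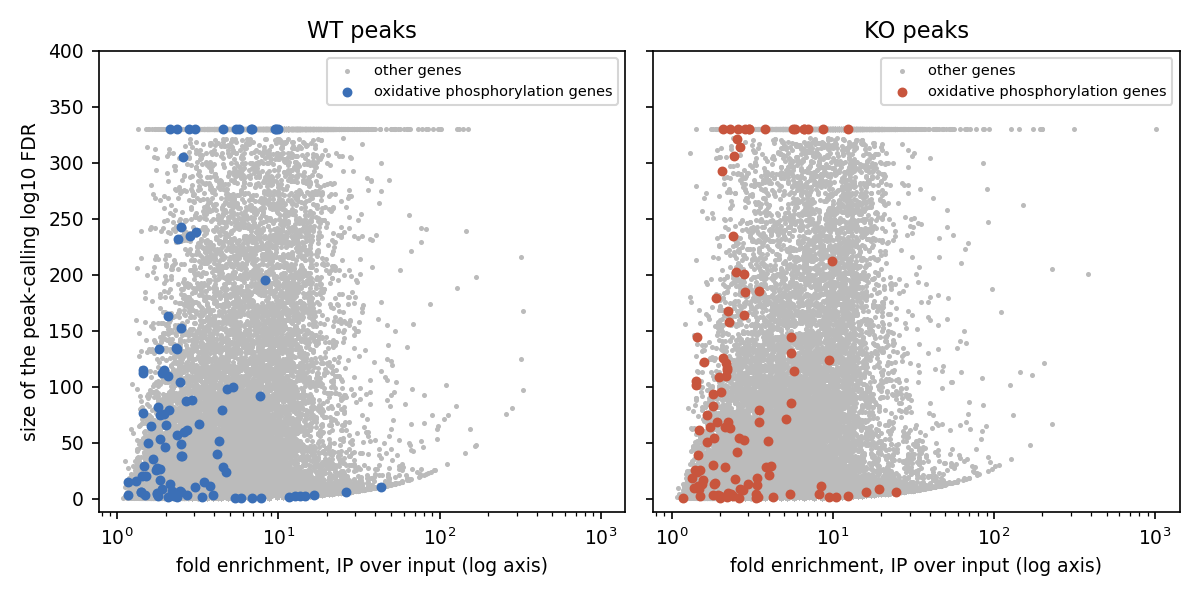
Fold enrichment of IP over input (x axis, log scale) against the size of the peak-calling log10 FDR (y axis) for every WT peak (left) and KO peak (right), with oxidative phosphorylation genes in colour and all others in grey. Peaks whose FDR was listed as 0 are drawn along the top. Member peaks lie along the left edge over the whole height of the plot, with medians of 2.48 and 2.44.

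The low fold enrichment belonged to the subunits of the enzymes more than to their assembly factors, above all those of complex I. The 73 WT peaks on structural subunits had a median of 2.35 (quartiles 1.79 and 3.04), and the 85 KO peaks had 2.25 (1.80 and 3.02). The 26 WT peaks on assembly factors had a median of 4.22, and the 26 KO peaks of assembly factors and *Atp5s* had 3.92. Of the subunit peaks, 27 of 73 in WT and 32 of 85 in KO were below 2, where 4 of 26 and 0 of 26 of the assembly factor peaks were. Complex I assembly factors stood at medians of 5.72 in WT (13 peaks, 5 genes) and 5.58 in KO (10 peaks, 5 genes). Within the genes' own RefSeq spans they stood at 4.26 over 9 WT peaks and 5.50 over 8 KO peaks, since 4 WT and 2 KO peaks listed under *Ndufaf2* lay outside it. With the same restriction, all assembly factor peaks had medians of 3.33 and 3.68, and structural subunits 2.34 and 2.23. Complex IV assembly genes were close to complex IV subunits in WT, at medians of 2.53 over 13 peaks and 2.36 over 15 peaks. In KO they stood at 3.16 and 2.625, over 14 peaks each. Complex III was among the lowest, at 1.96 over 8 WT peaks and 2.00 over 10 KO peaks.

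**Figure D3:**
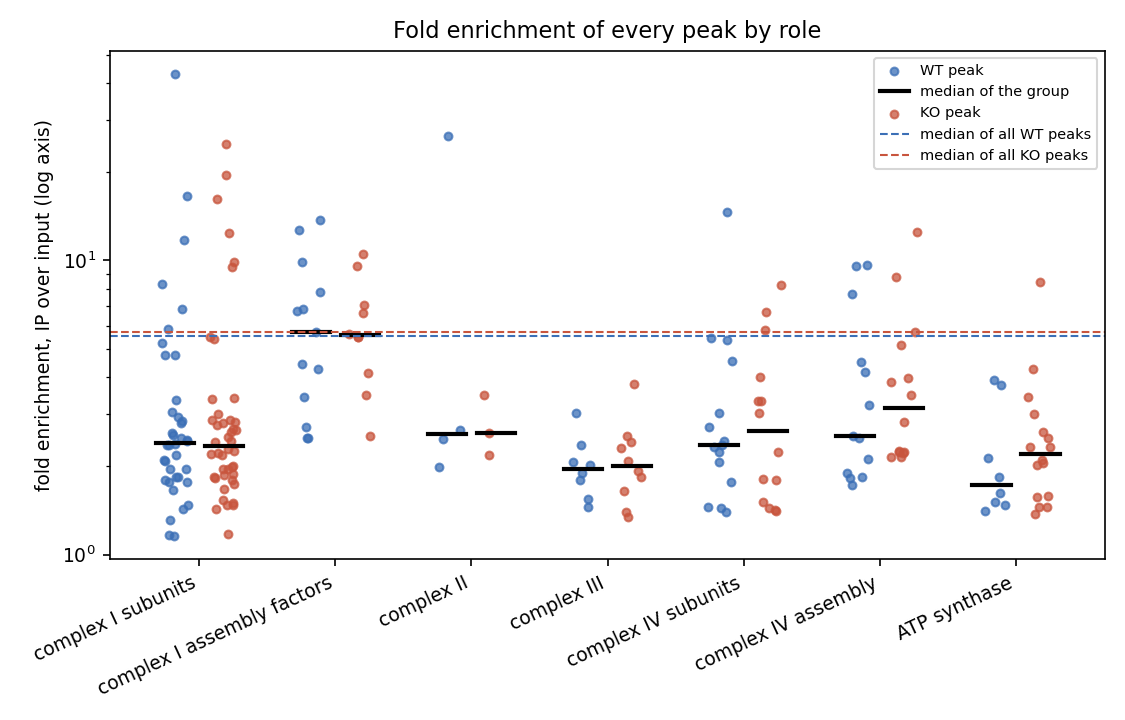
Fold enrichment of IP over input (y axis, log scale) for every peak of an oxidative phosphorylation gene, by role (x axis), with WT in blue and KO in red. Black bars are medians and dashed lines the medians of all peaks (5.54 WT, 5.72 KO). The complex I assembly factors have the highest medians, 5.72 and 5.58 (4.26 and 5.50 within the genes' own spans).

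A further list of assembly and cofactor genes outside the naming rule had intermediate values. Of its 33 genes, 24 had a peak in WT and 25 in KO, with medians of 4.60 and 4.40. The 11 regulators of mitochondrial biogenesis had peaks in 10 and 11 genes, with medians of 5.97 and 5.06. The 13 protein-coding genes of the mitochondrial genome, which encode the remaining subunits, had peaks in 6 and 5 genes, with medians of 5.37 and 4.39.

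Peaks lay mostly in 3′ UTRs and, next, in 5′ UTRs. In WT, 60 of 99 member peaks were annotated to a 3′ UTR (60.6%, 95% exact Clopper-Pearson interval 50.3% to 70.3%) and 27 to a 5′ UTR (27.3%), against 47.2% and 18.9% of all peaks. In KO, 62 of 111 were in a 3′ UTR (55.9%, 46.1% to 65.3%) and 32 in a 5′ UTR (28.8%), against 49.3% and 17.3%. First exons and other exons held 3.03% and 9.09% of WT member peaks, against 11.5% and 22.4% of all. These intervals cover counting error only, and peaks of 1 gene are not independent. Fold enrichment was low in each main position class, where 3′ UTR peaks had a median of 2.49 in WT (all peaks 5.20) and 5′ UTR peaks 2.44 (all 5.86). Member peaks were also shorter, with a median exonic length of 237 bases in WT and 238 in KO against 326 and 301 for all peaks.

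**Figure D4:**
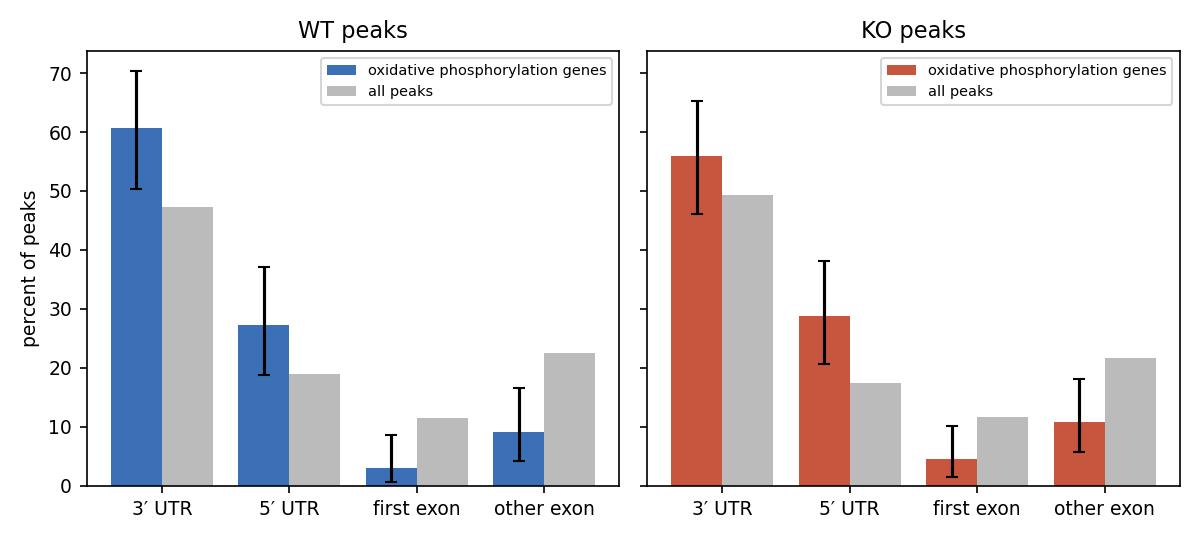
Share of peaks (y axis, percent) annotated to 3′ UTRs, 5′ UTRs, first exons and other exons (x axis), for oxidative phosphorylation genes (coloured) and all peaks (grey) in WT (left) and KO (right). Error bars are 95% exact binomial intervals for the coloured bars, and 3′ UTRs hold 60.6% and 55.9% of member peaks.

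The core subunits of complex I that carried peaks did so weakly. *Ndufv1*, which binds NADH, had 1 3′ UTR peak at a fold enrichment of 2.93 in WT and 2.83 in KO. *Ndufv2*, an iron-sulphur subunit beside it, stood at 1.95 and 1.88. *Ndufs1*, the largest core subunit, was the member with the most peaks of its complex in WT, at 4 (2.43, 2.50, 3.35 and 1.77), and had 3 in KO (1.80, 2.66 and 5.40). The exonic *Ndufs1* peaks overlapped the span of the annotated gene *Ino80dos*, to which their reads could also belong. *Ndufs8*, a core subunit, had no peak in either list. Neither did the accessory genes *Ndufa2*, *Ndufa6*, *Ndufa11*, *Ndufb1*, *Ndufb3*, *Ndufb4b*, *Ndufb4c*, *Ndufb6* and *Ndufc2*, nor *Ndufa4* and its paralogue *Ndufa4l2*.

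The strongest complex I peaks were on accessory subunits. *Ndufs4*, an accessory subunit whose loss causes Leigh syndrome, had the highest fold enrichment of any member in WT, 43.0, and 19.5 in KO, at chr13:114360973-114388020 in WT and chr13:114360973-114387430 in KO. These spans include introns and held 685 exonic bases in WT and 596 in KO, and both peaks were annotated to a 3′ UTR. The log10 FDR was -10.8 in WT and -8.74 in KO. A second *Ndufs4* peak, also annotated to a 3′ UTR, stood at 1.76 and 2.19. *Ndufa13*, also known as GRIM-19, had 1 peak at 16.6 in WT and 2 at 24.8 and 16.2 in KO, all over the span of the testis kinase gene *Tssk6*. The KO peaks of *Ndufa13* overlapped WT peaks listed under *Tssk6* best, at fold enrichments of 6.84 and 12.7.
*Ndufa5* had a peak at 11.7 in WT and 12.4 in KO that lay outside its RefSeq span, and a 3′ UTR peak at 2.56 and 2.44. *Ndufv3*, an accessory subunit of the NADH-binding module, had a 3′ UTR peak at 8.30 in WT and 9.90 in KO, with log10 FDR of -195 and -212. *Ndufa9* stood at 5.23 and 9.46. *Ndufab1* had a 3′ UTR peak at 2.18 in WT and 3.38 in KO, and a WT peak at 6.84 (log10 FDR -0.56) outside its RefSeq span. The strongest peaks of the accessory subunits not yet named that had a peak in both lists lay between 1.43 (*Ndufb11*) and 5.86 (*Ndufb8*) in WT and between 1.48 (*Ndufc1*) and 5.48 (*Ndufb5*) in KO. The *Ndufb8* peak at 5.86 had a log10 FDR of -1.07 and no KO peak overlapped it. The matched *Ndufb8* peak stood at 2.80 in WT and 3.01 in KO, with an FDR listed as 0 in both.

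High fold enrichment on members often came with weak statistics or with a neighbouring gene. A value of 10 or more was reached by 7 WT peaks in 6 genes (7.07%, against 21.8% of all peaks) and 6 KO peaks in 5 genes (5.41%, against 22.0%). Of these, 5 in WT and 4 in KO overlapped another RefSeq gene or lay outside the member's own span. The log10 FDR was -3.35 for *Ndufa13* in WT, -2.82 for *Cox6a2*, -2.56 for *Ndufaf2* and -2.05 for *Ndufa5*. By contrast, *Cox15* (9.57 in WT, 12.5 in KO) and *Cox19* (9.61 and 8.75) had an FDR listed as 0 in both genotypes. Over all members, 18 WT peaks and 16 KO peaks overlapped another RefSeq gene, in 10 genes each.

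The complex I assembly factors had the highest median fold enrichment of the 7 role groups in both lists. *Ndufaf1*, which binds early assembly intermediates, had a 5′ UTR peak at 6.84 in WT and 5.64 in KO, with an FDR listed as 0 in both, and a 3′ UTR peak at 4.26 and 5.51. *Ndufaf4* had peaks at 2.72, 5.72 and 4.45 in WT and at 7.06 and 5.48 in KO. *Ndufaf7*, a protein methyltransferase, had 3′ UTR peaks at 2.50 and 6.74 in WT and 2.54 and 6.62 in KO. *Ndufaf8* stood at 3.44 and 4.13. *Ndufaf2* had 5 peaks in WT and 3 in KO, up to 13.7 and 10.5, but all of those above 9 lay outside its RefSeq span, over *B230220B15Rik* or *Smim15*. Within the gene it stood at 2.49 and 3.48. *Ndufaf3*, *Ndufaf5* and *Ndufaf6* had no peak.

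Complex II had a peak on 3 of its 4 genes, with medians of 2.57 in WT and 2.59 in KO, near those of all member peaks. Complex III had a peak on 6 of its 8 genes, with lower medians of 1.96 and 2.00. *Sdha*, the flavin-binding catalytic subunit, had a 3′ UTR peak at 2.48 in WT and 2.59 in KO. *Sdhd*, a membrane anchor, stood at 2.66 and 3.48, and *Sdhc*, the other anchor, had no peak. *Sdhb*, the iron-sulphur subunit, had a 3′ UTR peak at 1.99 and 2.19. It also had a peak of 90 bases over its start at 26.4 in WT (log10 FDR -6.06, chr4:140961233-140961322), and no KO peak overlapped it. In complex III, *Uqcrc1*, a core protein, stood at 2.35 and 2.31, and the hinge protein gene *Uqcrh* had 5′ UTR peaks at 1.55 and 1.40. *Uqcrc2* and *Uqcrfs1*, the Rieske iron-sulphur protein gene, had no peak in either list. *Uqcr11*, *Uqcrb* and *Uqcrq*, small subunits, reached 1.45, 2.07 and 1.89 in WT and 1.92, 2.42 and 2.54 in KO. *Uqcr10* had the highest value of the complex, 3.04 in WT and 3.81 in KO.

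Complex IV differed between paralogues. *Cox4i1*, *Cox5a*, *Cox7a2*, *Cox7b*, *Cox7c* and *Cox8a*, widely expressed subunits, had no peak, nor did *Cox4i2* and the testis form *Cox8c*. *Cox6a2*, the muscle form, stood at 14.6 in WT and 8.26 in KO, over the span of *Itgad*, and *Cox7a1*, another muscle form, at 3.02 and 4.00. *Cox8b* had a peak at 2.07 in WT alone. *Cox7b2*, a testis form, stood at 2.72 in WT and 3.34 in KO. *Cox6b2*, another, had 2 matched peaks, both lower in KO (2.44 and 2.23, 1.76 and 1.51), and a KO peak with no WT match at 3.34 (log10 FDR -1.11).
Of the widely expressed forms, *Cox6a1* had a first-exon peak at 4.56 in WT and 3.02 in KO, and *Cox6b1* stood at 2.36 and 6.67. *Cox5b* had a 5′ UTR peak at 2.32 and 1.80. *Cox6c* had a matched peak at 1.45 and 1.42, and a WT peak at 2.24 that lay outside its RefSeq span, over *Vps13b*. *Cox7a2l*, a supercomplex assembly factor related to *Cox7a2*, had a 3′ UTR peak at 5.43 and 5.82 with an FDR listed as 0 in both.

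The assembly factors of complex IV were higher than its subunits for several members. *Cox15*, which makes heme a, and *Cox10*, which makes its precursor, reached 9.57 and 4.17 in WT and 12.5 and 3.97 in KO. *Cox11* and *Cox17*, which deliver copper, reached 7.71 and 2.53 in WT and 5.14 and 3.49 in KO. *Cox19* stood at 9.61 and 8.75, *Cox20* at 3.22 and 5.73 and *Cox14* at 2.50 and 2.83. *Cox20* lies over the span of *Hnrnpu*, and it had 3 peaks in each list, of which a pair in the 3′ UTR covered nearly the same bases. *Cox16* and *Cox18* had no peak.

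ATP synthase was the complex in which the lists differed most. Of its 18 genes, 4 had a peak in both lists, 2 in WT alone, 7 in KO alone and 5 in neither. Of the 13 with a peak, 30.8% were thus in both lists, 15.4% in WT alone and 53.8% in KO alone, against 79.9%, 9.01% and 11.1% of all 17744 genes with a peak. *Atp5b*, the catalytic beta subunit, had the same 60 bases of its 3′ UTR called in both, at 1.47 in WT and 1.45 in KO. *Atp5h* stood at 2.13 and 2.09 and *Atp5j* at 1.83 and 2.02, and *Atp5c1*, the gamma subunit, had a 3′ UTR peak at 1.41 and 1.57 and a 5′ UTR peak at 3.78 in WT that was split in KO into peaks at 8.46 and 2.33. The WT list alone held *Atp5d* (3.91) and *Atp5g3* (1.51). The KO list alone held *Atp5a1* (3.43), *Atp5g1* (4.29), *Atp5j2* (2.05), *Atp5k* (2.32), *Atp5l* (2.62), *Atp5mpl* (1.38) and *Atp5s* (3.00).
The statistics behind these peaks ranged widely. *Atp5k* had an FDR listed as 0 and *Atp5j2* a log10 FDR of -293, while *Atp5a1* stood at -1.51 and *Atp5g1* at -1.65. Weakest was the *Atp5l* peak at 2.62, with a log10 FDR of -0.95, and the other *Atp5l* peak stood at 1.45 (-12). The *Atp5d* peak at 3.91 (-3.36) lay over the span of *Cbarp*, and the other *Atp5d* peak stood at 1.62 (-64.9). The *Atp5a1* peak lay over the span of *Haus1*. The 3 genes of the membrane ring subunit c split, with *Atp5g1* in KO alone, *Atp5g3* in WT alone and *Atp5g2* in neither. *Atp5e*, *Atp5md*, *Atp5o* and *Atp5pb* also had no peak. A gene missing from a list has no value there, so these 9 genes have no genotype ratio.

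In the other complexes, genes listed in 1 genotype alone were *Ndufb9* (1.17), *Ndufb10* (1.31), *Ndufs6* (1.83) and *Cox8b* (2.07) in WT and *Ndufa1* (1.54) in KO. No peak of the other genotype, of any gene, overlapped the peaks of the 14 genes listed once. The values of these peaks were low, as were those of all unshared member peaks, with medians of 2.07 over 17 WT peaks and 2.00 over 30 KO peaks. Member peaks that overlapped a peak of the other genotype made up 82.8% of the WT peaks and 73.0% of the KO peaks, against 80.0% and 77.9% of all peaks.

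Fold enrichment at shared positions was close between the genotypes. Peaks were matched where each was the other's best overlap over exonic bases, which gave 75 member pairs among 23997. The median KO over WT ratio was 0.10 on the log2 scale for members and 0.05 for all pairs. Of the member pairs, 45 were higher in KO, 29 lower and 1 equal, so 60.0% were higher against 53.6% of all. A ratio of at least 1.5-fold higher in KO was reached by 6 member pairs (8.00%, against 16.1% of all pairs) and 1.5-fold lower by 5 (6.67%, against 13.1%). At 2-fold these were 2 (against 6.97%) and 1 (against 6%).
Ratios spread more at high fold enrichment. In the 47 member pairs whose geometric mean was under 3, 1 was past 1.5-fold higher and 0 lower, against 9.64% and 4.94% of all such pairs. In the 28 pairs at or above 3, 5 were past it in each direction (17.9%), against 17.5% and 15.0%.

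**Figure D5:**
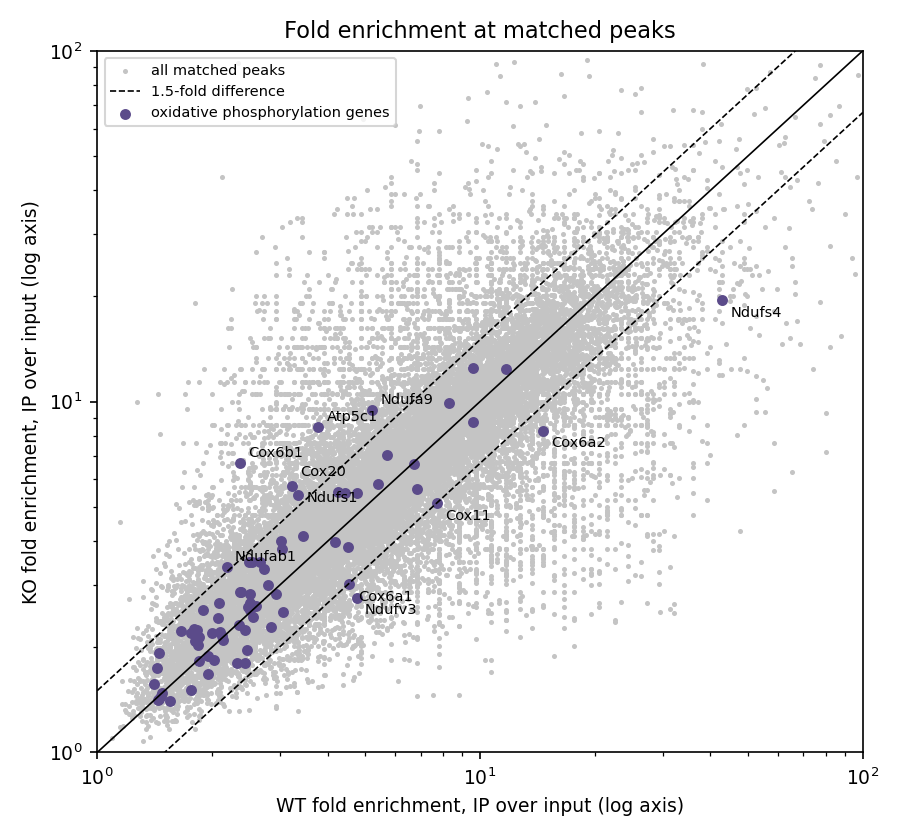
Fold enrichment in WT (x axis, log scale) and KO (y axis, log scale) at matched peaks, with oxidative phosphorylation genes in purple and all pairs in grey. The solid line is equality and the dashed lines a 1.5-fold difference. Named points are the 6 member pairs at or past it in the direction of KO and the 5 in that of WT, and 33 grey pairs lie beyond the axes, which end at 100.

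The 6 pairs higher in KO came from complexes I, IV and ATP synthase. *Cox6b1*, a subunit at the interface between complex IV monomers, stood at 2.36 in WT and 6.67 in KO (2.83-fold), with an FDR listed as 0 in both. The *Atp5c1* 5′ UTR peak stood at 3.78 over 537 exonic bases in WT, where the KO list had 2 peaks, 1 of 269 bases at 8.46, which was the matched one, and 1 of 209 bases at 2.33. The 3′ UTR peak of *Ndufa9*, at chr6:126821721-126822046 in both lists, stood at 5.23 and 9.46 (log2 0.86). *Cox20* stood at 3.22 and 5.73, *Ndufs1* at 3.35 and 5.40 and *Ndufab1*, the mitochondrial acyl carrier protein, at 2.18 and 3.38.

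The 5 pairs lower in KO were the *Ndufs4* peak (43.0 in WT, 19.5 in KO, log2 -1.14), *Cox6a2* (14.6 and 8.26), an exonic *Ndufv3* peak (4.76 and 2.76), *Cox6a1* (4.56 and 3.02) and *Cox11* (7.71 and 5.14). *Cox11* lay exactly at the threshold. Just inside the threshold on the higher side was *Ndufab1* at log2 0.63, and just outside were *Ndufaf2* at 0.48 and *Cox17* at 0.46. On the lower side the first pair outside was an *Ndufs1* peak at -0.43. The other *Ndufv3* peak, in the 3′ UTR, was higher in KO (8.30 and 9.90).
The 2 lists often drew peak borders differently. With identical borders and exonic length there were 17 member pairs, of which 9 were higher in KO and 8 lower, with a median log2 ratio of 0.01. *Ndufa9* and *Cox11* were the pairs among them at or past 1.5-fold. In bulk tissue, more methylation per transcript and a changed mix of cells cannot be told apart.

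By role, the median log2 ratio ran from -0.03 in complex IV subunits to 0.28 in complex I assembly factors. Complex I subunits had 17 pairs higher and 11 lower of 29, with 3 and 2 past 1.5-fold. All 3 complex II pairs and 5 of 8 complex III pairs were higher in KO, with none past it. The 8 pairs of complex I assembly factors had none past it either.

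Outside the naming rule, 6 of the 29 matched pairs of the assembly and cofactor list were at least 1.5-fold higher in KO (20.7%, against 16.1% of all pairs) and 0 lower (against 13.1%). They were *Acad9* (7.12 in WT, 32.4 in KO), a complex I assembly factor, *Atpaf1* (5.19 and 17.3), an ATP synthase assembly factor, *Sdhaf2* (2.50 and 5.24), *Sdhaf3* (3.91 and 5.96), *Tmem126b* (1.90 and 3.14) and *Cycs*, the gene of cytochrome c (15.0 and 23.8). These are single pairs, and other pairs of *Sdhaf2* (11.5 and 10.9, 2.68 and 2.62) and *Sdhaf3* (7.32 and 5.99) were slightly lower in KO. Of 16 regulator pairs, 1 was at least 1.5-fold higher, in the mitochondrial helicase *Twnk* (7.97 and 16.2). Lower by as much was 1 pair of the coactivator *Ppargc1a* (7.45 and 4.90). The other *Twnk* pairs stood at 16.6 and 13.2 and at 13.8 and 15.7. The other *Ppargc1a* pairs were higher in KO (5.38 and 6.33, 1.72 and 2.05). None of the 5 mitochondrial genome pairs passed 1.5-fold.

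The genotype comparison table named 19 member genes. Of the 72 members with a peak in either list, 18 were named there (25.0%, against 26.1% of all genes with a peak), and the other was *Uqcrfs1*, which had no peak in either list. By role they were *Ndufa5*, *Ndufa13*, *Ndufab1*, *Ndufb2*, *Ndufb4*, *Ndufb5*, *Ndufs1*, *Ndufs4* and *Ndufv3* of complex I, its assembly factors *Ndufaf1* and *Ndufaf4*, *Sdhd* of complex II, *Uqcrb* and *Uqcrfs1* of complex III, *Cox15* and *Cox17* of complex IV assembly, and *Atp5d*, *Atp5k* and *Atp5s*.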

How the data were processed

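Per the methods, the authors trimmed reads with fastp, aligned them with HISAT2 and used exomePeak for peaks and ChIPseeker for annotation (versions not given in the sources used here). The labels give the 3 replicates of a genotype 1 shared peak list, from which joint calling was inferred. Deposited values used were read counts and GC percent per library, fold enrichment (the ratio of IP to input) and the log10 FDR of each peak, taken as a score. Coordinates are GRCm38. The deposited genotype comparison also holds fold changes, p-values, FDRs and a score, which are the authors' own comparison and were not used. Only its gene names were read.

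Peaks were matched as mutual best overlaps of at least 1 exonic base, and a ratio of at least 1.5-fold was counted (Python 3.11.15, pandas 2.3.3, numpy 2.4.6). The matching was tested on simulated data. A shared list gives no replicate error, so no test was run. Named genes were those with the 10 highest peaks in each list, pairs past 1.5-fold, core subunits, paralogues, members with at least 3 peaks and members in 1 list. Members and lists were chosen with earlier results of these data known. Starts and gene spans were from RefSeq (GRCm38.p6).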

Additional observations from a re-analysis of the deposited data

How the results depend on the processing

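For 17 results recomputed under alternatives, 8 values moved beyond the limits set for them. Most of these results are counts, shares or medians of fold enrichment, which have no direction that could change. The median log2 ratio at matched peaks, which has one, stayed positive in each alternative tried for it. Keeping peaks with a fold enrichment of at least 4 left 20 of 64 member genes in WT and 22 of 66 in KO. Over all genes it left 12641 of 15781 and 13028 of 16146. Taking the strongest peak of each gene gave a KO median fold enrichment of 3.00, against 8.17 over all genes. Of the 58 member genes compared this way, 5 were at least 1.5-fold higher in KO and 8 at least 1.5-fold lower. As reported above, 6 pairs were higher and 5 lower, so the balance between the directions depended on this choice. The shares of all genes past 1.5-fold at this setting were not computed. Requiring a reciprocal overlap of 50% lowered the share of overlapping peaks to 67.7% in WT and 60.4% in KO. A 2-fold threshold left 2 pairs higher and 1 lower in KO. The other 37 recomputed values stayed within the limits set for them. These include 12 from alternatives chosen after seeing the data, namely 6 medians within the genes' own RefSeq spans, given above, and 6 values without peaks over another RefSeq gene's span, which were 62 WT and 60 KO genes, medians of 2.36 and 2.32, and 4 pairs past 1.5-fold in each direction. No paired analysis was possible because the replicates of a genotype share 1 peak list and no result comes from a test. For the same reason no replicate could be left out. The depth behind single peaks is unknown, so fold enrichment over few reads cannot be told from fold enrichment over many except through its FDR.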
